A study of Mus musculus with 12 samples.

Results

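The genes described here encode the subunits of ATP-sensitive potassium (KATP) channels and their relatives among the inward rectifier potassium channels: Abcc9, Abcc8, Kcnj8, Kcnj11, Kcnj2, Kcnj12, Kcnj15 and Kcnj16. They were chosen by family, as rows of the deposited table annotated with exactly 1 of these gene symbols, and the row with the highest mean over the 12 arrays was used for each gene. All 8 genes had such a row, among 19687 genes with a row of their own, and 9 of the 101175 rows belonged to them, since Kcnj12 had 2. The family was picked with earlier results of these arrays known, in which Abcc9 and Kcnj2 stood among the changed genes, so their values are a description of these mice and not an independent test.

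The transgenic mice were 7 males that carried human PPARγ with the dominant-negative mutation P467L, driven in smooth muscle by the promoter of smooth muscle myosin heavy chain. They were set against 5 nontransgenic littermates, whose sex the labels do not state, and both groups were of the C57BL/6 strain, with ages not given in the sources used here. Total RNA of the thoracic aorta was measured with 1 Affymetrix mouse exon array (the 1.0 ST design) per mouse and no pooling. Values are log2 intensities as deposited, differences are P467L minus nontransgenic on that log2 scale, and the number of arrays limits their precision. RNA came from the whole dissected vessel, in which fewer cells of a type and less RNA per cell cannot be told apart.

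PPARγ is a nuclear receptor that regulates transcription when it binds fatty acid-derived or drug ligands, and its dominant-negative form interferes with that regulation. A KATP channel is built from a pore of Kir6 subunits, which let potassium pass more easily inwards than outwards, and a ring of sulfonylurea receptors (SUR), which bind nucleotides and drugs. In vascular smooth muscle the usual partners are Kir6.1 and SUR2, the products of Kcnj8 and Abcc9. Opening these channels hyperpolarises the muscle cell, closes voltage-gated calcium channels and relaxes the vessel. Other inward rectifiers, Kir2.1 above all, set the resting potential and let small arteries dilate when extracellular potassium rises a little.

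The 3 sequences are shown because they belong to the KATP pair of vascular smooth muscle and to the 1 member that rose. Each is the promoter window of 250 bases before to 50 bases after the annotated start, from RefSeq on GRCm38.p6, which is not the mm9 build of the submitters' processing. Windows were found for 6 of the 8 members. The windows lie at chr6:142702225-142702524 on the minus strand (Abcc9), chr6:142571565-142571864 on the minus strand (Kcnj8) and chr11:111065914-111066213 on the plus strand (Kcnj2). Capitals mark matches on either strand to the motifs searched.
Abcc9: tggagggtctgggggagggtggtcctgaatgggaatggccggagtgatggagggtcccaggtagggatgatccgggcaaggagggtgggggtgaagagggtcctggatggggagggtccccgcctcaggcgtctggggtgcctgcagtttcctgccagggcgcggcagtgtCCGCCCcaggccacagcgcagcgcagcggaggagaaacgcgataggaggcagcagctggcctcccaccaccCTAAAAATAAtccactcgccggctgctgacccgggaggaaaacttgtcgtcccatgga
Kcnj8: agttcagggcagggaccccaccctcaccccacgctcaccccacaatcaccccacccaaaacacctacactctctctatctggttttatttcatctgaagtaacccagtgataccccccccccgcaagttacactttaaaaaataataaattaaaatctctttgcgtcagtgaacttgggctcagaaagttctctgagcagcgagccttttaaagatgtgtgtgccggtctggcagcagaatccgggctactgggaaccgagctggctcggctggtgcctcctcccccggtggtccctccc
Kcnj2: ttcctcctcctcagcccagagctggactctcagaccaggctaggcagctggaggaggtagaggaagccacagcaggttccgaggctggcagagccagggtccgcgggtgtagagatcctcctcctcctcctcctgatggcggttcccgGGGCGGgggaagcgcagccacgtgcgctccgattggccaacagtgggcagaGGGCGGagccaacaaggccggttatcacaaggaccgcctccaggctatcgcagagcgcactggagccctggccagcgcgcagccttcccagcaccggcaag
The motifs were the DR1 element of PPAR with RXR, its half-site (AGGTCA, which occurs in the DR1), the CArG box, the MEF2 site, the GC box (GGGCGG) and the TATA box (TATAAA). The Abcc9 window held 1 MEF2 match, at bases 243 to 252 counted from its first base, and 1 GC box on the opposite strand, at bases 172 to 177. The Kcnj2 window held 2 GC boxes, at bases 149 to 154 and 200 to 205, and the Kcnj8 window held no match. Of the windows not shown, the first of Kcnj16 held half-sites at bases 61 to 66 and 87 to 92. It also held a MEF2 match at bases 232 to 241. Later windows of Kcnj16 held a match to the TATA box letters at bases 118 to 123 and a GC box at bases 205 to 210. The window of Kcnj15 held a match to the TATA box letters on the opposite strand, at bases 260 to 265, after the annotated start. Of 32851 promoter windows of the same length, 3.19% held a MEF2 match, 35.7% a GC box, 16.3% a half-site, 13.6% a TATA box, 1.63% a CArG box and 0.0396% a DR1 element. These are matches of letters in a short window, and no binding was measured.

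Of the usual KATP subunits of vascular smooth muscle, the sulfonylurea receptor had lower transcript values in P467L aorta, as measured in whole-vessel RNA. The cell type in which they were lower was not measured, and the splice forms that the Abcc9 row covers are not given. Abcc9, which encodes SUR2, had values with a lowest of 8.37, a median of 8.59 and a highest of 8.90 in the 7 P467L aortas, against 9.31, 9.26, 9.16, 9.25 and 9.48 in the 5 nontransgenic aortas. Every P467L aorta lay under every nontransgenic aorta, with a gap of 0.26 between the groups. Means were 8.62 ± 0.23 (SD, n = 7) and 9.29 ± 0.12 (SD, n = 5), a difference of -0.67 ± 0.11 (SE; limma adjusted p = 0.0282 over 19687 genes). The intensity in P467L aorta was thus 62.9% of that in nontransgenic aorta, with a 95% interval of 53.4% to 74.1%. Only 42 genes of the table had a more negative difference.

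The call of Abcc9 depended on single arrays, while its size did not: leaving out 1 array gave differences between -0.72 and -0.62, and it passed in 5 of these 12 fits. It did not pass without P467L replicate 2 or 4 (limma adjusted p = 0.0533 and 0.0658) or without nontransgenic replicate 1, 2, 3, 4 or 5 (limma adjusted p = 0.0901, 0.0522, 0.0557, 0.0697 and 0.0731). Over all 25 alternative settings it kept its direction and passed in 15 (limma adjusted p from 0.00344 to 0.274). Blocking on the replicate number gave a difference of -0.78 (limma adjusted p = 0.0199). That difference rests on replicates 1 to 5 alone, since replicates 6 and 7 occur only in P467L. Those P467L arrays, left without weight, had the highest Abcc9 values of the group, 8.90 each.

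**Figure D1:**
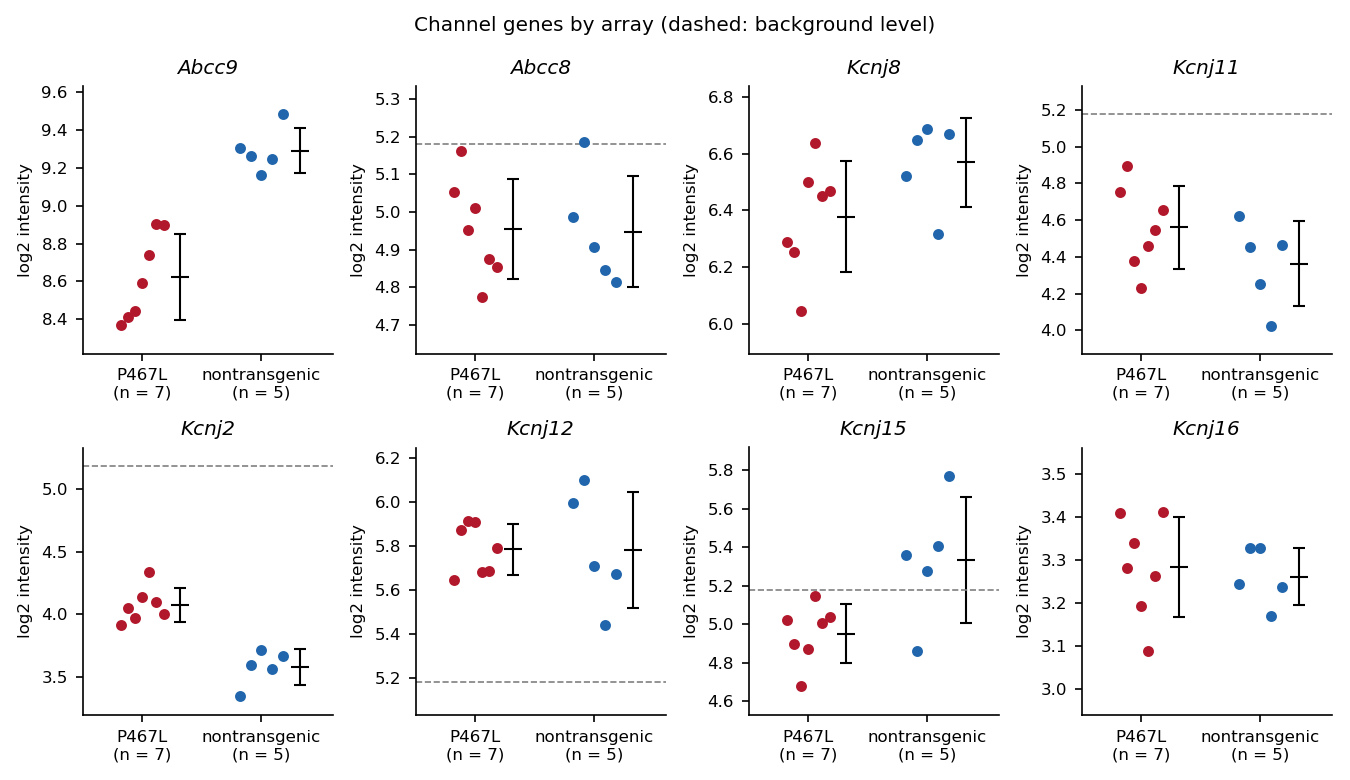
Log2 intensity of the 8 channel genes in each aorta, P467L (red, n = 7) left of nontransgenic (blue, n = 5), with the mean and SD as a bar beside the points and the background level of 5.18 as a dashed line where it falls in the panel. The groups do not overlap for Abcc9 and Kcnj2, and the Kcnj2 values all lie under the dashed line. Each panel has its own axis, which does not start at 0.

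Kcnj8, which encodes the Kir6.1 pore that SUR2 surrounds, differed less. Its values had a lowest of 6.04, a median of 6.45 and a highest of 6.64 in P467L aorta, against 6.52, 6.65, 6.69, 6.32 and 6.67 in nontransgenic aorta. The groups overlapped: 3 of the 7 P467L values lay under all nontransgenic values, while all 7 lay under the nontransgenic median. The means of 6.38 ± 0.20 (SD, n = 7) and 6.57 ± 0.16 (SD, n = 5) differed by -0.19 ± 0.11 (SE; limma adjusted p = 0.999), with a 95% interval of -0.42 to 0.04. A difference as negative as that of Abcc9 lies outside this interval, but a smaller one in the same direction does not. The sign was negative in all 25 alternative settings, and the difference passed in 0 of them.

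Whether the SUR and pore transcripts changed unequally was tested on the log2 difference of the 2 genes within each array, which cancels what an array adds to both. Abcc9 minus Kcnj8 averaged 2.25 ± 0.17 (SD, n = 7) in P467L aorta and 2.72 ± 0.18 (SD, n = 5) in nontransgenic aorta. The difference between genotypes was -0.48 ± 0.10 (SE), and the ranges of 2.08 to 2.45 in P467L and 2.47 to 2.93 in nontransgenic aorta did not overlap. Exact permutation of the genotype labels (two-sided, 792 arrangements) gave p = 0.00126, the smallest possible here, and an adjusted p = 0.00505 over the 4 pairs compared. Abcc9 was known to be lower when the pair was set up, so the p-value describes the unequal change in log2 values and is no fresh support for it. Kcnj8, with means of 6.38 and 6.57, was also dimmer than Abcc9, with 8.62 and 9.29. The processing of the arrays compresses differences of dim genes, which subtraction within an array does not cancel. How much this adds to the unequal change was not tested. With replicate numbers as pairs, an exact sign-flip permutation test over 5 pairs cannot go below p = 0.0625, and its adjusted p was 0.0833.

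**Figure D2:**
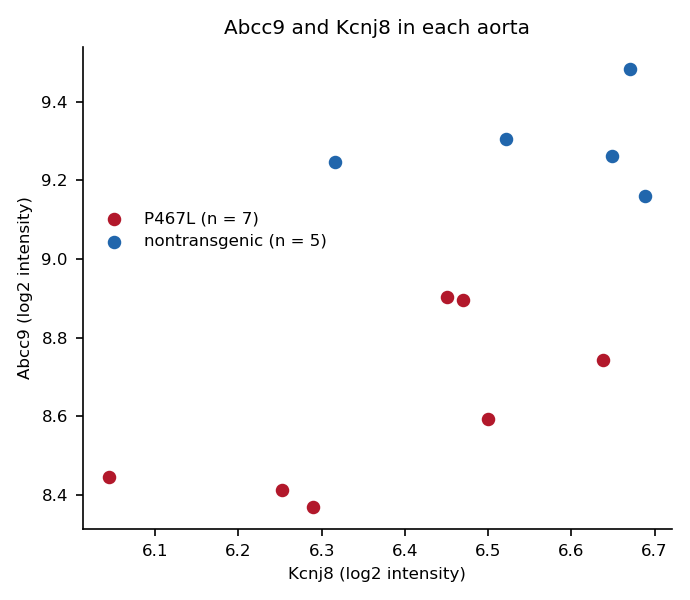
Log2 intensity of Abcc9 (vertical) against Kcnj8 (horizontal) in each aorta, P467L in red (n = 7) and nontransgenic in blue (n = 5). The 2 colours separate along the Abcc9 axis, at 8.90 and below against 9.16 and above, and overlap along the Kcnj8 axis.

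Abcc9 and Kcnj8 lie beside each other on mouse chromosome 6, with 0 protein-coding genes between them in RefSeq. After group means were removed, their values over the 12 arrays had Pearson r = 0.56 (permutation p = 0.0900) and Spearman rho = 0.48 (permutation p = 0.161). Adjusted over the 3 neighbour pairs examined, the permutation p-values were 0.135 and 0.242, so the relation did not pass. Without the 2 arrays farthest from the median, P467L replicates 6 and 7, r was 0.58. The other 2 neighbour pairs, Abcc8 with Kcnj11 (r = 0.43, rho = 0.34) and Kcnj2 with Kcnj16 (r = -0.56, rho = -0.50), did not pass either, with adjusted permutation p = 0.183 and 0.135 for r and 0.315 and 0.242 for rho. Without their 2 farthest arrays r was 0.17 and -0.48. Both depended on single arrays: r of Abcc8 with Kcnj11 was 0.24 without P467L replicate 2, and r of Kcnj2 with Kcnj16 was -0.23 without P467L replicate 5 and -0.74 without nontransgenic replicate 1. Within the 7 P467L arrays alone r of Kcnj2 with Kcnj16 was -0.95, a description with no test. The nontransgenic arrays did not share that negative sign. In replicates 1 to 5 they had Kcnj2 at 3.35, 3.60, 3.71, 3.56 and 3.67, beside Kcnj16 at 3.24, 3.33, 3.33, 3.17 and 3.24. Both genes lay under the background level of 5.18 in all 12 arrays, so nothing is read from this correlation.

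None of the other measured genes beside these 3 neighbour pairs passed the test. Gm11677, which lies between Kcnj2 and Sox9, had no row of its own and was not tested. On the Kcnj8 side, Ldhb, a lactate dehydrogenase subunit, differed by 0.10 ± 0.14 (SE), and Gys2, the liver form of glycogen synthase, by -0.01 ± 0.18. On the Abcc9 side, Cmas, which activates sialic acid, differed by -0.08 ± 0.15 and Sult6b2 by -0.02 ± 0.07. Around Kcnj16 and Kcnj2 on chromosome 11, Map2k6, a kinase of the p38 pathway, differed by 0.17 ± 0.14, Abca5 by 0.02 ± 0.20 and Sox9, a transcription factor of cartilage, by 0.27 ± 0.10 (limma adjusted p = 0.723). Around Kcnj11 and Abcc8 on chromosome 7, Nomo1 differed by 0.09 ± 0.10, Abcc6, a transporter of the same family as SUR, by -0.04 ± 0.10, Ush1c by 0.00 ± 0.12 and Otog by 0.11 ± 0.09.

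The KATP subunits known from pancreatic beta cells were dim. Background was set at 5.18, the 95th percentile of the mean over 918 genes for olfactory and vomeronasal receptors, taken as silent in aorta. Abcc8, which encodes SUR1, had a lowest of 4.77, a median of 4.95 and a highest of 5.16 in P467L aorta, against 4.99, 5.18, 4.91, 4.85 and 4.81 in nontransgenic aorta. Of its 12 values 1, in a nontransgenic aorta, exceeded background, and the groups overlapped almost wholly. The means of 4.95 ± 0.13 (SD, n = 7) and 4.95 ± 0.15 (SD, n = 5) differed by 0.01 ± 0.09 (SE; limma adjusted p = 0.999).

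Kcnj11, which encodes Kir6.2, the pore of beta cell, cardiac and skeletal muscle KATP channels, had a lowest of 4.23, a median of 4.55 and a highest of 4.90 in P467L aorta, against 4.62, 4.45, 4.25, 4.02 and 4.46 in nontransgenic aorta. All 12 values were under background, and 3 of the 7 P467L values lay above every nontransgenic value. The difference was 0.20 ± 0.13 (SE; limma adjusted p = 0.999), with a 95% interval of -0.08 to 0.47. Leaving out 1 array gave differences from 0.11, without nontransgenic replicate 4, to 0.26. Abcc8 minus Kcnj11 within arrays differed by -0.19 ± 0.12 between genotypes (exact two-sided permutation p = 0.134, adjusted p = 0.134).

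Among the classical inward rectifiers, Kcnj2 was higher in P467L aorta. It encodes Kir2.1, the main strong inward rectifier of small arteries and capillary endothelium. Its values had a lowest of 3.92, a median of 4.05 and a highest of 4.34 in P467L aorta, against 3.35, 3.60, 3.71, 3.56 and 3.67 in nontransgenic aorta. Every P467L aorta lay above every nontransgenic aorta, with a gap of 0.21, yet all 12 values lay under background. Means were 4.07 ± 0.14 (SD, n = 7) and 3.58 ± 0.14 (SD, n = 5), a difference of 0.50 ± 0.09 (SE; limma adjusted p = 0.0337). Genes with a larger positive difference numbered 136.

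The call of Kcnj2 was lost in 16 of 24 alternative settings, always with a positive difference between 0.44 and 0.54 (limma adjusted p from 0.00661 to 0.447). With the replicate block, which rests on replicates 1 to 5, the limma adjusted p was 0.0888. Of the fits that left out 1 array, only those without P467L replicate 1 or 3 kept the call (limma adjusted p = 0.0427 and 0.0478). The fits without P467L replicates 2, 4, 5, 6 and 7 gave limma adjusted p = 0.0649, 0.0852, 0.0604, 0.0897 and 0.0669. None of the 5 fits that left out a nontransgenic array kept it, with limma adjusted p between 0.0650 and 0.105.

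**Figure D3:**
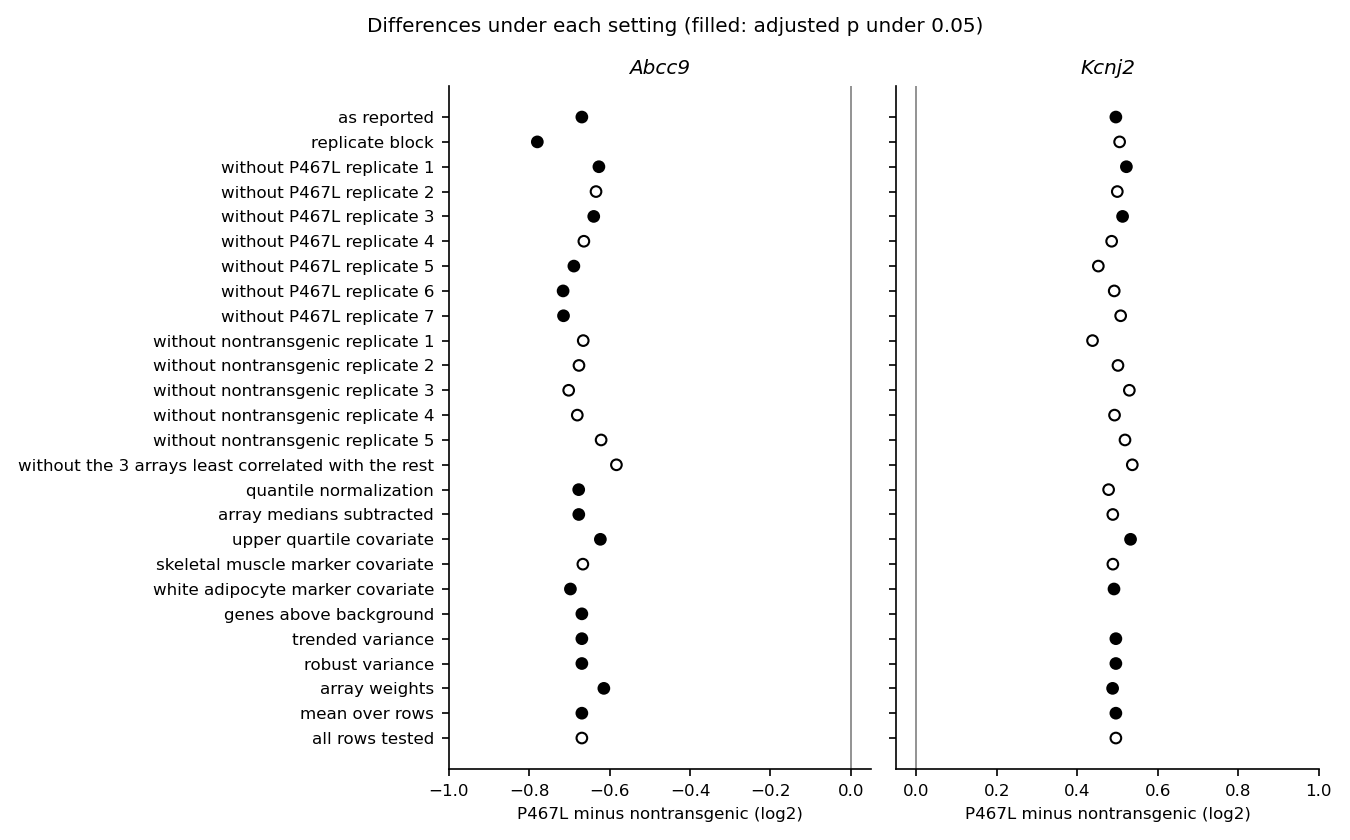
Log2 difference, P467L minus nontransgenic, of Abcc9 (left panel) and Kcnj2 (right panel) under each setting, with filled points where the limma adjusted p was under 0.05. Kcnj2 has no point among genes above background, since its mean lies under that level. All Abcc9 points lie between -0.78 and -0.58 and all Kcnj2 points between 0.44 and 0.54, while filled and open points are mixed.

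Kcnj12, which encodes Kir2.2, a close relative that can assemble with Kir2.1, was above background on its brighter row. That row had a lowest of 5.64, a median of 5.79 and a highest of 5.91 in P467L aorta, against 6.00, 6.10, 5.71, 5.44 and 5.67 in nontransgenic aorta, and all P467L values lay inside the nontransgenic range. The difference was 0.00 ± 0.11 (SE; limma adjusted p = 0.999), with a 95% interval of -0.23 to 0.24. The other row of Kcnj12 was dimmer and spread more, with means of 4.47 ± 0.66 (SD, n = 7) in P467L and 4.31 ± 0.89 (SD, n = 5) in nontransgenic aorta, and differed by 0.16. Kcnj2 minus Kcnj12 within arrays averaged -1.71 ± 0.19 (SD, n = 7) in P467L and -2.21 ± 0.34 (SD, n = 5) in nontransgenic aorta. The difference of 0.49 ± 0.15 (SE) had an exact two-sided permutation p = 0.00253 (adjusted p = 0.00505), but with the mean over both Kcnj12 rows the adjusted p was 0.183, and with the replicate numbers as pairs it was 0.0833. Kcnj2 was known to be higher when the pair was set up and lies under background in every array, so this p is no fresh support and the size is uncertain.

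Kcnj15 and Kcnj16 encode Kir4.2 and Kir5.1, relatives better known from epithelia, where Kir5.1 works by pairing with Kir4 subunits. Kcnj15 had a lowest of 4.68, a median of 5.01 and a highest of 5.15 in P467L aorta, against 5.36, 4.86, 5.28, 5.41 and 5.77 in nontransgenic aorta. All 7 P467L values lay under the nontransgenic median and under background, whereas 4 of the 5 nontransgenic values lay above background. The difference of -0.38 ± 0.13 (SE) did not pass (unadjusted p = 0.0114, limma adjusted p = 0.664). Nontransgenic replicate 5 was its highest and nontransgenic replicate 2 its lowest control, and leaving out 1 array gave differences between -0.50 and -0.27.

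Kcnj16 had a lowest of 3.09, a median of 3.28 and a highest of 3.41 in P467L aorta, against 3.24, 3.33, 3.33, 3.17 and 3.24 in nontransgenic aorta. The groups overlapped, under background throughout, and the difference was 0.02 ± 0.07 (SE; limma adjusted p = 0.999). Kcnj16 minus Kcnj15 within arrays differed by 0.40 ± 0.17 (SE) between genotypes (exact two-sided permutation p = 0.0417, adjusted p = 0.0556).

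Of the 8 members, 1 was higher and 1 lower past a limma adjusted p under 0.05, where 0.117% of all genes were called higher and 0.127% lower, 0.244% in all. The P467L and nontransgenic values did not overlap for 2 of the 8 members, against 0.726% of all genes. Because the family was picked with those calls known, nothing is read from these shares. The median difference over the members was 0.00, as over all 19687 genes, and both group means lay above background for 3 of the 8 (Abcc9, Kcnj8 and Kcnj12). At an unadjusted p under 0.05 Kcnj15 joined them, making 3 of 8, where 4.82% of all genes reached that level (2.45% higher and 2.37% lower), and nothing is read from that count either.

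**Figure D4:**
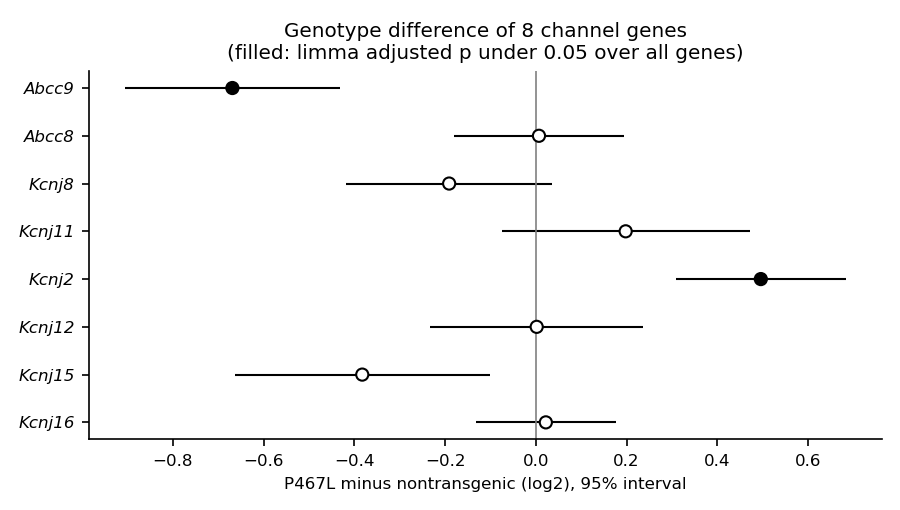
Log2 difference, P467L minus nontransgenic, of the 8 channel genes with its 95% interval from the limma fit, with filled points where the adjusted p over all genes was under 0.05. Abcc9 at -0.67 and Kcnj2 at 0.50 are filled, and the intervals of Kcnj8, Kcnj11, Abcc8, Kcnj12 and Kcnj16 include 0.

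Related genes were examined in 8 lists with 89 entries, of which 75 had a row of their own, and 0 of the 75 passed the limma adjusted p, while 5 were higher and 2 lower at an unadjusted p under 0.05, a level that 2.45% of all genes reached in the higher and 2.37% in the lower direction. Of 9 other inward rectifiers none passed at either level; Kcnj4 differed by 0.14 ± 0.09 (SE) and Kcnj9, a G protein-gated channel, by 0.15 ± 0.10, all under background. Of 12 measured potassium channels of the K2P family, which carry leak current, Kcnk1 differed by 0.52 ± 0.13 (limma adjusted p = 0.202) and Kcnk3 by 0.17 ± 0.10. Of 7 other ABCC transporters, Abcc1, a drug and glutathione conjugate exporter, differed by -0.20 ± 0.08 (limma adjusted p = 0.774) and Abcc3 by 0.07 ± 0.08.

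Inputs that open or close KATP channels were set beside them. Of 13 measured vasodilator receptors and kinases, Calcrl, the receptor of calcitonin gene-related peptide, differed by 0.58 ± 0.23 (SE; limma adjusted p = 0.857) and Prkar2a, a regulatory subunit of protein kinase A, by 0.25 ± 0.10 (limma adjusted p = 0.882). Of 9 measured scaffolds and anchors, Akap5, which anchors protein kinase A, differed by 0.51 ± 0.16 (limma adjusted p = 0.509) and Cav1, the main caveolin, by -0.14 ± 0.09. None of these 4 differences passed.

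Genes for what inward rectifiers need were also without a call. Polyamines plug the pore from inside and so produce rectification: of 9 measured genes of their metabolism, Sms, spermine synthase, differed by 0.23 ± 0.12 (SE) and Oaz1, an antizyme that restrains polyamine synthesis, by -0.24 ± 0.16. Phosphoinositides keep the pore open: of 8 genes of their supply, Pi4kb differed by -0.19 ± 0.07 (limma adjusted p = 0.822) and Pip4k2a by 0.09 ± 0.12. Of 8 measured genes of the sodium-potassium pump and potassium cotransport, Fxyd5, a modulator of the pump, differed by 0.59 ± 0.15 (limma adjusted p = 0.232) and Slc12a7 by 0.13 ± 0.07. The list medians lay between -0.02 and 0.06.

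**Figure D5:**
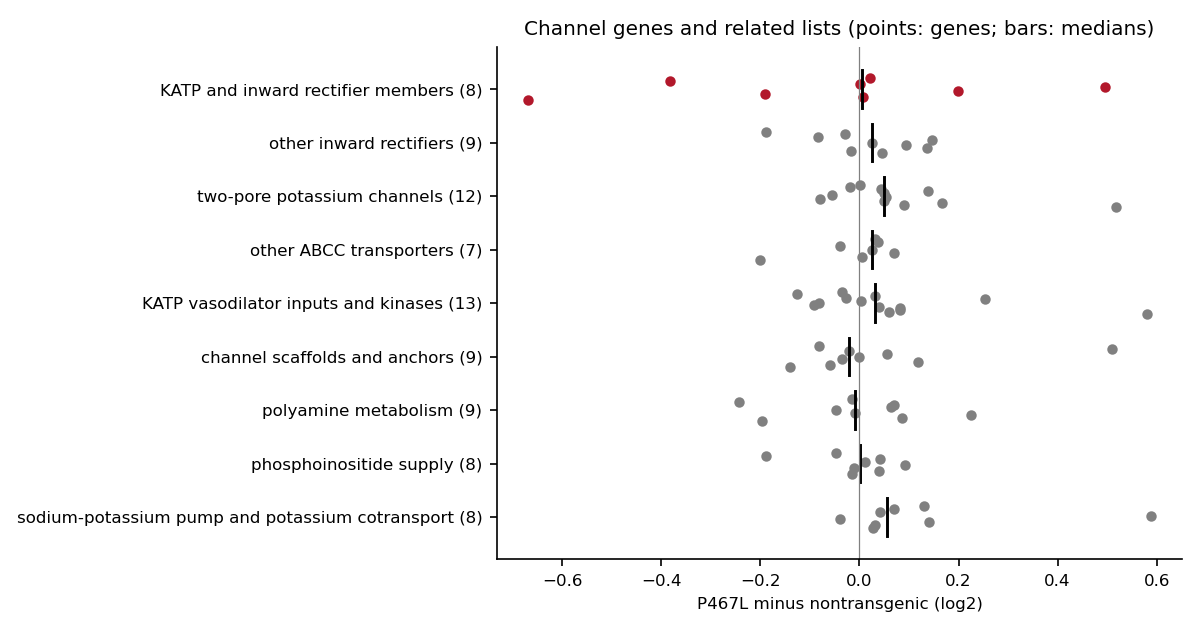
Log2 difference, P467L minus nontransgenic, of each member (red) and of each measured gene of the 8 related lists (grey), with a bar at each list's median and the number of genes in parentheses. The medians lie near 0 in every list, and single genes such as Fxyd5 (0.59), Calcrl (0.58) and Kcnk1 (0.52) stand to the right without passing the test.

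The genes whose pattern was most like that of Abcc9, after removal of group means, were Kidins220 (Pearson r = 0.95), Bmpr1b (0.94), Cped1 (0.93), Pcmtd1 (0.93) and Setd7 (0.92), over 12 arrays and 10636 genes above background. Of these, Bmpr1b, a receptor of bone morphogenetic proteins, also fell, with a log2 difference of -0.79 ± 0.12 (SE; limma adjusted p = 0.0197). The other 4 did not pass. Such likeness was common, since the 95th percentile of r with Abcc9 was 0.75, and Kcnj8 stood at rank 2640. The nearest patterns to Kcnj8 were those of Ublcp1 (0.86), Wdsub1 (0.86), Set (0.84), Mxra7 (0.83) and Oxsr1 (0.82), none of which passed the test.

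All 10 smooth muscle genes lay above background in both groups, with Myh11 at 11.80 in P467L and 11.86 in nontransgenic aorta. That level does not single out a tissue, since 54.0% of all genes had a mean over the 12 arrays above it. Adipoq, an adipocyte gene, stood at 9.51 in P467L and 9.60 in nontransgenic aorta. None of the 10 smooth muscle genes passed, Des, desmin, coming closest (0.61 ± 0.11 SE, limma adjusted p = 0.0510). Abcc9 and Kcnj8 are also pericyte genes in other vessels, and 0 of 10 pericyte and mural markers passed. Their median difference was -0.07, with 6 of 10 negative and 4 positive. Pdgfrb differed by -0.18 ± 0.09 (SE) and Rgs5 by -0.17 ± 0.13, while Cspg4 differed by 0.18 ± 0.09, Anpep by 0.14 ± 0.11 and Mcam by 0.07 ± 0.11. The log2 of their summed intensity ran from 11.81 to 12.49 in P467L and from 12.23 to 12.51 in nontransgenic aorta.

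Several members are abundant in striated muscle, whose RNA differed between arrays. The 12 measured skeletal muscle markers all had positive differences, with a median of 0.28 and 0 past the test (Myoz1 0.27 ± 0.11 SE). The log2 of their summed intensity was 12.22 in P467L replicate 4, from 9.49 to 10.32 in the other 6 P467L aortas and from 9.50 to 10.09 in nontransgenic aortas. Without that array Abcc9 differed by -0.66 and Kcnj2 by 0.49, and with these markers as a covariate by -0.67 and 0.49 (limma adjusted p = 0.0622 and 0.0749).

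Among the other cell types, 1 of 10 fibroblast markers fell, Mfap5, a microfibril protein (-0.65 ± 0.10 SE, limma adjusted p = 0.0183), where 0.127% of all genes were called lower. The fibroblast median was 0.03 with 6 of 10 differences positive, among them Lum at 0.29 ± 0.16, while Dpt stood at -0.19 ± 0.12. No marker passed among 10 endothelial (median 0.06, Cldn5 0.52 ± 0.13), 8 nerve (median 0.11, Nefl 0.28 ± 0.13) and 9 macrophage genes (median 0.04, C1qc 0.12 ± 0.08). None passed among 6 cardiac markers either, with a median of 0.01, where Nppb, under background, differed by -0.24 ± 0.10 and Myl7 by 0.19 ± 0.11. White adipocyte markers had a median of -0.08 with 4 of 6 negative and none past the test: Adipoq differed by -0.08 ± 0.18, Fabp4 by -0.21 ± 0.17 and Cidec by -0.24 ± 0.20, and Lep, under background, by 0.22 ± 0.18. The 7 brown adipocyte markers had a median of -0.01 and no call (Prdm16 -0.37 ± 0.16, Ucp1 0.25 ± 0.51). The log2 of the summed intensity overlapped between groups in every one of these lists, for fibroblast markers at 11.72 to 11.99 in P467L and 11.81 to 12.26 in nontransgenic aorta. Their part in the channel results was not tested beyond the covariates given. With the white adipocyte markers as a covariate Abcc9 differed by -0.70 (limma adjusted p = 0.00641) and Kcnj2 by 0.49 (limma adjusted p = 0.0484).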

How the data were processed

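Total RNA of 12 thoracic aortas was amplified from about 50 ng with a NuGen kit and hybridised to exon arrays, per the labels' protocols. The deposited values are log2 intensities, made with Affymetrix Power Tools and RMA on the mm9 build per the submitters' processing notes. No source used here gives versions, probe set class or filters. RMA includes background correction, normalization between arrays and probe summary, and compresses differences of dim genes. Scanner files and detection calls were not used here.

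The table held 101175 rows, 0 missing values and 0 columns of other samples. The platform annotation gave 22754 rows 1 symbol, 1522 several and 76899 none. The median value of an array was 4.74 to 4.79, its upper quartile 6.10 to 6.38. P467L was compared with nontransgenic in limma 3.58.1 (R 4.3.3; lmFit, eBayes, no covariate) over 19687 genes with Benjamini-Hochberg adjustment. The fit was also run on simulated data with independent noise and larger changes than any member showed. That run does not cover differences of the size reported here. "Rose", "fell" and "passed" mean an adjusted p under 0.05, and ± is SE for differences and SD for levels. Correlations used 100000 permutations within groups.

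Members and lists were chosen with earlier results of these data known. Named genes were all members, of each pathway list the genes past the threshold or the 2 with the smallest p, of each cell type list those past it or the 1 with the smallest p, and the 5 genes most like Abcc9 and Kcnj8. Myh11, the neighbouring genes and the further cell type markers given beside those with the smallest p were named outside that rule. Replicate numbers 1 to 5 occur in both groups. Numbers 6 and 7 occur only in P467L, so every fit with the replicate block takes its genotype difference from replicates 1 to 5. Same-numbered arrays deviated together (r from 0.227 to 0.398), with the highest r at the same number for 3 of 5. The numbers were therefore taken as pairs in the replicate block and the sign-flip test, a reading from the data, while the main tests are unpaired. Upper quartiles of replicates 1 to 5 were 6.15, 6.10, 6.24, 6.26 and 6.38 in P467L and 6.20, 6.16, 6.32, 6.35 and 6.38 in nontransgenic arrays. Their part in the shared deviation was not tested. Each array is 1 mouse. Alternatives were the replicate block, leaving out each array or the 3 least correlated, quantile and median normalization, array and marker covariates, a filter on dim genes, other variance models, array weights, row means and all rows.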

Additional observations from a re-analysis of the deposited data

How the results depend on the processing

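Counts of called genes moved with the processing. Of all genes, 23 were higher as reported, against 14 with the replicate block, 6 without the 3 arrays least correlated with the rest (P467L replicates 1 and 2 and nontransgenic replicate 2), 42 after quantile normalization, 71 with the upper quartile as a covariate, 12 with the skeletal muscle covariate, 6 among all rows and 7 to 30 with 1 array left out. Lower were 25 as reported, against 16 with the block, 2 without the 3 arrays, 32 after quantile normalization and 35 with the upper quartile covariate. The lower count was 11 with the skeletal muscle covariate, 3 among all rows and 4 to 18 with 1 array left out. The member called higher (Kcnj2) dropped to a count of 0 with the block, without the 3 arrays, after quantile normalization, after median subtraction, with the skeletal muscle covariate, among genes above background and among all rows. The member called lower (Abcc9) dropped to 0 without the 3 arrays (-0.58, limma adjusted p = 0.128), with the skeletal muscle covariate and among all rows. Both counts ran from 0 to 1 with 1 array left out.

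Differences near 0 changed sign: Abcc8 to -0.0080 after quantile normalization, -0.00073 after median subtraction and -0.046 with the upper quartile covariate (-0.027 to 0.066 with 1 array left out), Kcnj12 to -0.0092, -0.0058, -0.047 and, with the skeletal muscle covariate, -0.0051 (-0.084 to 0.081), and Kcnj16 to -0.00099 with the upper quartile covariate (-0.00069 to 0.054). Kcnj8, Kcnj11, Kcnj15, Abcc9 and Kcnj2 kept their signs in every setting that gave a value.

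With the replicate block the within-array differences were -0.56 for Abcc9 minus Kcnj8 and 0.48 for Kcnj2 minus Kcnj12, neither past the threshold, where 5 pairs cannot pass it. With the mean over rows Kcnj2 minus Kcnj12 was 0.42. Kcnj16 minus Kcnj15 passed without the 3 arrays (0.52), after quantile normalization (0.40) and with the upper quartile covariate (0.32). For that covariate the slope was fitted once with the true genotypes and not again in each permutation, so its pass is not an exact test. With 1 array left out the difference ran from 0.29 to 0.54, past the threshold without P467L replicate 5 or nontransgenic replicate 2 (exact permutation adjusted p = 0.0289 and 0.00808). The correlation of Abcc8 with Kcnj11 turned to -0.082 without the 3 arrays and -0.48 with the upper quartile covariate. Values under the background level of 5.18 bound what can be said of Abcc8, Kcnj11, Kcnj2 and Kcnj16, and of Kcnj15 in P467L aorta. The block changed no other call of a member.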

Other observations

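The P467L aortas differed among themselves in Abcc9. Replicates 1, 2 and 3 had 8.37, 8.41 and 8.45, replicates 4 and 5 had 8.59 and 8.74, and replicates 6 and 7 both had 8.90. The SD of 0.23 (n = 7) in P467L stood beside 0.12 (n = 5) in nontransgenic aorta, and the difference in spread was not tested. The upper quartiles of these arrays were 6.15, 6.10 and 6.24 for replicates 1, 2 and 3, and 6.26, 6.38, 6.32 and 6.25 for replicates 4 to 7, against 6.16 to 6.38 in nontransgenic arrays. With the upper quartile as a covariate Abcc9 differed by -0.62 ± 0.09 (SE; limma adjusted p = 0.0116) and Kcnj2 by 0.53 ± 0.07 (limma adjusted p = 0.00661).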
